A study of Mus musculus with 6 samples.

Results

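The metallothionein genes Mt1 and Mt2 and 8 genes of antioxidant defence, Hmox1, Gclc, Gclm, Sod2, Sod3, Cat, Gpx3 and Txnip, were followed in lung endothelial cells (EC) of infant and young adult mice. Members were taken by gene symbol from the table of RPKM (read number scaled by transcript length and by the mapped reads of the library), where they had 11 transcript rows of 17241 and made up 10 of 12623 genes. Both groups were wild-type C57BL/6N mice without any treatment, and each had 3 libraries. The infant mice were pups in the second postnatal week according to the study, and the other mice were young adults several weeks older. Living cells positive for CD31 and CD34 and negative for PTPRC, LYVE1, PDPN and LY76 had been collected by flow cytometry, and RNA primed at the poly(A) tail had been amplified by PCR. The comparison asked which transcripts differed between EC of the growing and of the mature lung. The labels do not say whether a library came from 1 mouse or from several, so the spread between libraries may be partly technical.

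Metallothioneins are small cysteine-rich proteins that bind zinc and copper, and their genes are switched on by the metal-sensing transcription factor MTF1 and by glucocorticoids. Superoxide dismutases turn superoxide into hydrogen peroxide, which catalase, the glutathione peroxidases and the peroxiredoxins then remove, with glutathione and thioredoxin as electron donors. In the lung, where EC sit directly beside inhaled oxygen, these enzymes are a main line of defence against oxidants.

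The libraries differed in more than age. The summed RPKM of 4 Y-linked genes was between 42.2 and 47.0 in the infant libraries and 0.0 in each young adult library, although the methods name female mice. Xist, which is transcribed from the inactive X chromosome of females, measured 7.6 to 8.7 RPKM in the infant and 12.5 to 15.6 RPKM in the young adult libraries. Each infant library thus held RNA of both sexes, and so of more than 1 mouse. The young adult libraries showed RNA of females only, so that age and sex makeup cannot be told apart here. The spread between infant libraries is then one between pools and not between single mice. Globin transcripts took 11%, 3.41% and 23.5% of the summed RPKM of infant replicates 1, 2 and 3 and at most 0.487% of a young adult library. The 12 endothelial markers summed to between 3051.1 and 4513.0 RPKM in the infant and between 5012.1 and 5385.4 RPKM in the young adult libraries, with 2 of 12 called higher in the young adult. Of 9 fibroblast markers 8 were called lower in the young adult, with summed levels of 1271.7, 332.7 and 895.8 RPKM in infant replicates 1, 2 and 3 and of 10.3 to 23.3 RPKM in the young adult libraries. Of 9 mural markers 8 were called lower, and their sums were 237.0, 68.9 and 236.4 RPKM against 12 to 16.3 RPKM. Infant replicate 2 thus stood apart, with the lowest globin share, fibroblast sum and mural sum of its group. Of 11 epithelial markers 4 were called lower, from 6525.9 to 11395.6 RPKM in the infant and from 1823.5 to 8398.6 RPKM in the young adult libraries, and the summed levels overlapped. Of 12 leukocyte markers 3 were called lower, with overlapping sums of 305.7 to 502.8 RPKM and 141.0 to 539.7 RPKM. These sums were mostly Lyz2, at 275.3 to 467.1 RPKM in the infant and 134.3 to 515.5 RPKM in the young adult libraries. No other leukocyte marker exceeded 26.3 RPKM. For 6 of the 12 markers the libraries of the 2 groups did not overlap, against 43.4% of all tested genes. All 7 erythroid markers measured were called lower. Among the mural, epithelial and leukocyte lists, the markers at 0 in at least 1 young adult library were Cspg4, Epcam, and Marco, S100a8 and S100a9, respectively, whereas no fibroblast or endothelial marker was at 0. In such bulk samples, fewer cells of a type and less RNA per cell cannot be told apart.

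Of the 10 genes, Mt1 and the secreted superoxide dismutase gene Sod3 were called lower in young adult EC and Txnip, which encodes the thioredoxin-binding protein TXNIP, was called higher. Calls required an adjusted p (limma) below 0.05 together with an absolute difference above 0.81 in log2(RPKM + 1), the fold threshold of the study. Over all 12458 tested genes 11.4% were called, 3.33% higher and 8.1% lower, and under quantile normalization, which moved the median log2 difference of all tested genes from -0.07 to 0.04, the share of calls that were higher went from 29.1% to 46.5%. The 3 members kept their calls and directions in that setting. With robust eBayes Sod3 alone was still called, with an adjusted p of 0.0653 for Mt1 and 0.0502 for Txnip, and when limma's treat tested against the fold threshold itself none of the 3 was called (0 of 10 members). In 5 of the 10 genes the infant and young adult libraries did not overlap, against 43.4% of all tested genes, and the adjusted p was under 0.05 at any fold in 5 of 10, against 25.5%. An unadjusted p under 0.05 was found for 40.4% of all tested genes, which is the background for such counts in the related lists. The median log2 difference (young adult minus infant) of the 10 genes was -0.12, with 4 values above and 6 below 0.

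**Figure D1:**
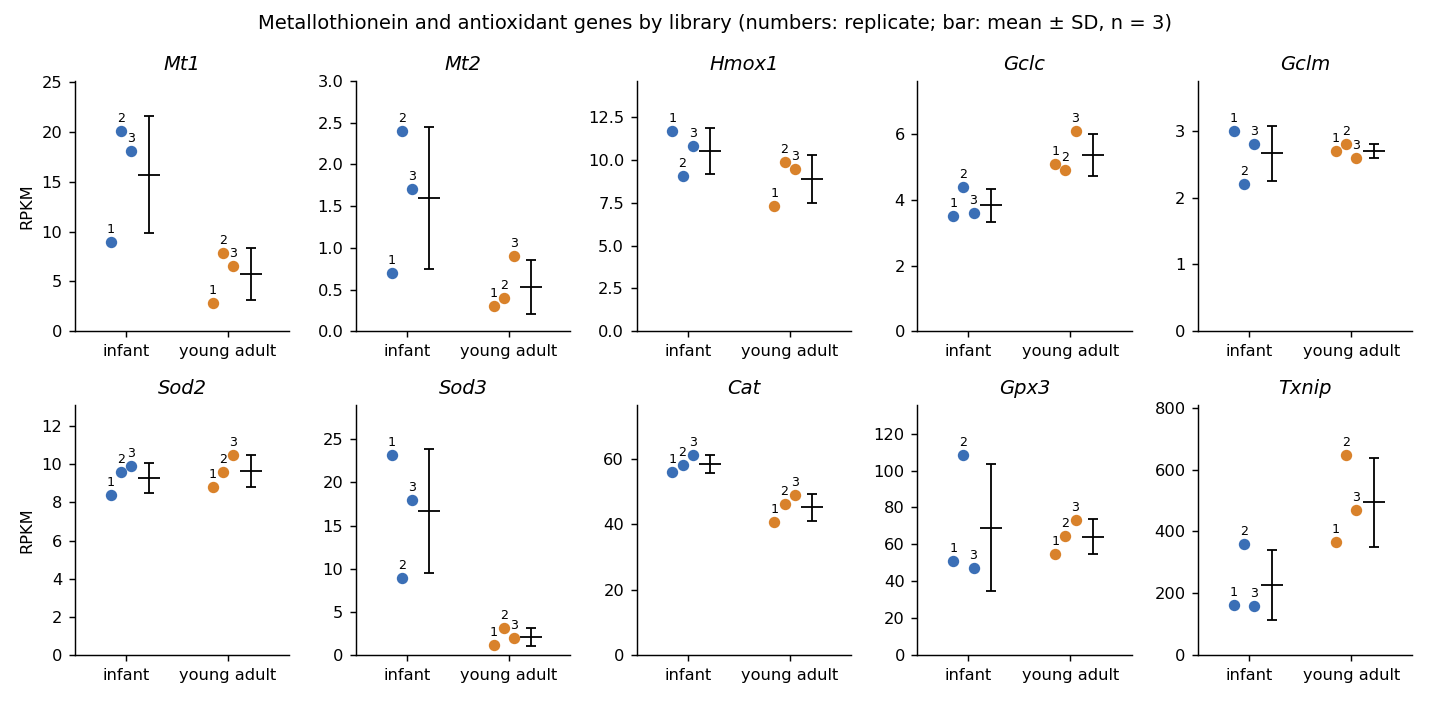
RPKM (linear axes from 0, a separate scale for each gene) of the 10 genes in the 3 infant and 3 young adult libraries, with 1 point per library and the mean ± SD of each group beside the points. The infant points of Mt1, Sod3 and Cat lie above all young adult points, those of Gclc and Txnip lie below them, and the other 5 genes overlap.

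**Figure D2:**
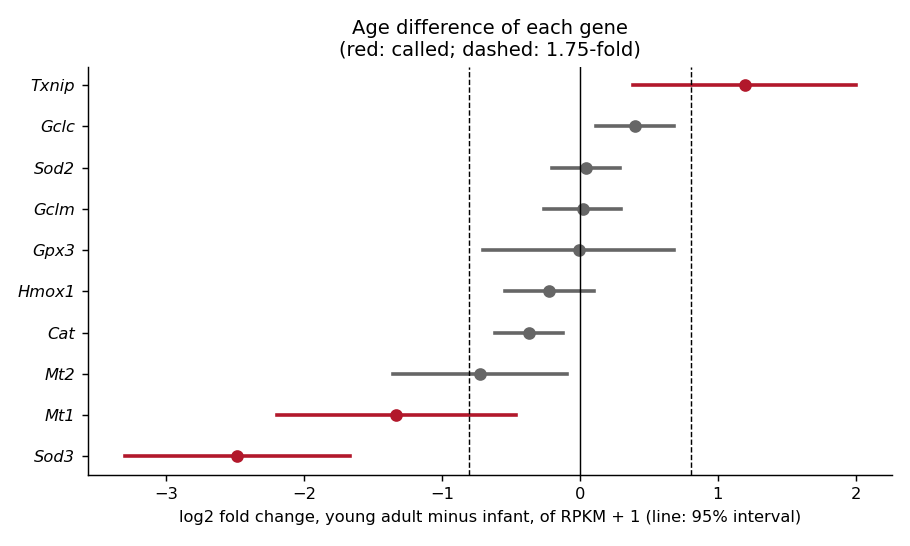
Log2 difference (young adult minus infant) of each of the 10 genes on the log2(RPKM + 1) scale, with limma's 95% confidence interval as a line, called genes in red and the fold threshold dashed. Sod3 at -2.48 and Mt1 at -1.33 lie to the left and Txnip at 1.19 to the right, whereas the intervals of Hmox1, Gclm, Sod2 and Gpx3 include 0.

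The genes covered a wide span of levels. On the RPKM scale, which corrects for transcript length, the order in the infant libraries was Txnip, Gpx3, Cat, Sod3, Mt1, Hmox1, Sod2, Gclc, Gclm and Mt2. The ranges of the 3 libraries overlapped for the neighbours Gpx3 and Cat, Sod3 and Mt1, Mt1 and Hmox1, Hmox1 and Sod2, and Gclm and Mt2. In the young adult the order was Txnip, Gpx3, Cat, Sod2, Hmox1, Mt1, Gclc, Gclm, Sod3 and Mt2, with overlap between Sod2 and Hmox1, Hmox1 and Mt1, Mt1 and Gclc, and Gclm and Sod3. Sod3 thus stood between Cat and Mt1 in infant EC and between Gclm and Mt2 in young adult EC.

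Mt1 and Mt2 are neighbours on mouse chromosome 8, where Mt2 (positions 94172618 to 94173567, GRCm38.p6, the coordinates of mm10) ends 5316 bases before Mt1 (94178883 to 94180327) begins on the same strand. Their start regions are printed because both are textbook targets of MTF1, whose binding element has the core TGCACNC or TGCGCNC. The RefSeq windows run from 250 bases before to 50 after the start, are written 5′ to 3′ on the plus strand, and show matches to either core on either strand in capitals. The window of Mt2 is chr8:94172368-94172667 and that of Mt1 is chr8:94178839-94179138, whose start site differs from the outermost annotated start of the gene.
Mt2: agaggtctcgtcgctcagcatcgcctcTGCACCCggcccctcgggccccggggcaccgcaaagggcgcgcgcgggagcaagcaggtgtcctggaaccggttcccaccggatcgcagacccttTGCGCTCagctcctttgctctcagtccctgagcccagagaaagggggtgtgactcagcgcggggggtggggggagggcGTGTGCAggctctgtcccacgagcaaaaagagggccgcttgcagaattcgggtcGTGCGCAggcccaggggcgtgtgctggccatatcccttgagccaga
Mt1: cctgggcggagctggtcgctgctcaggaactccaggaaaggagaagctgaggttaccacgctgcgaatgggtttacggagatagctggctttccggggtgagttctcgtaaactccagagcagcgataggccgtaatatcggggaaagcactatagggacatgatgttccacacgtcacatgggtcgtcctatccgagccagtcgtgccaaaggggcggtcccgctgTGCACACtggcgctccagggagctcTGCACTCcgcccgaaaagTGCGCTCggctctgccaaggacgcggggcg
The Mt2 window held 4 core matches, at -223, -128 and -50 before and at 5 after the start, of which the last pair were on the minus strand. The Mt1 window held 3, at -23, 3 and 21, counted from the start site of this window. Which start these cells used was not tested, so where the matches lie relative to it is unknown. Of 32851 RefSeq windows of the same length 25.7% held at least 1 match to either core, 1.97% held at least 3 and 0.517% held at least 4. Windows were found for 7 of the 10 genes and not for Hmox1, Gclc and Sod3. Among the other genes with a window Gclm had 3 matches and Txnip 1, all of the TGCGCNC form, and Cat, Gpx3 and Sod2 had none. A match to letters is a description and says nothing of binding by the factor.

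Mt1 was called lower in young adult EC. Its level was 9.0, 20.1 and 18.1 RPKM in infant replicates 1, 2 and 3 and 2.8, 7.9 and 6.5 RPKM in young adult replicates 1, 2 and 3. All infant libraries were above all young adult libraries, but the lowest infant value, 9.0 RPKM, lay close to the highest young adult value, 7.9 RPKM, and replicate 1 was the lowest library of each group. The mean fell from 15.7 ± 5.92 to 5.73 ± 2.64 RPKM (SD, n = 3), a ratio of 2.74, and the log2 difference was -1.33 ± 0.37 (SE; 95% confidence interval -2.19 to -0.47; limma, adjusted p = 0.0367). The call rested on few libraries: it was kept without infant replicate 1 and lost without any one of the other 5, with an adjusted p of 0.0577 without infant replicate 2, 0.105 without infant replicate 3, and 0.0983, 0.062 and 0.0697 without young adult replicates 1, 2 and 3. The log2 difference stayed between -1.67 and -0.96 in these fits.

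Mt2 was the lowest of the 10 genes in both groups and was not called. It measured 0.7, 2.4 and 1.7 RPKM in infant replicates 1, 2 and 3 and 0.3, 0.4 and 0.9 RPKM in young adult replicates 1, 2 and 3. The groups overlapped, since young adult replicate 3 exceeded infant replicate 1. The means were 1.6 ± 0.854 and 0.533 ± 0.321 RPKM (SD, n = 3), and the log2 difference was -0.72 ± 0.27 (SE; interval -1.36 to -0.09; limma, adjusted p = 0.0874), a scale on which the pseudocount of 1 understates the change of so low a gene. Without infant replicate 1 Mt2 was called lower, at -1.0 (adjusted p = 0.0393).

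The balance of the 2 metallothionein transcripts overlapped between the groups. The log2 ratio of Mt1 to Mt2 was 3.68, 3.07 and 3.41 in infant replicates 1, 2 and 3 and 3.22, 4.30 and 2.85 in young adult replicates 1, 2 and 3, with means of 3.39 ± 0.31 and 3.46 ± 0.75 (SD, n = 3; exact two-sided permutation test, p = 0.9, smallest possible p 0.1). Since values were deposited with 1 decimal, the ratio of young adult replicate 2 alone, 19.8, could lie anywhere between 17.4 and 22.7. The longest run of bases shared by the Mt1 and Mt2 reference transcripts was 20. Of 19 other genes of metal handling tested, among them zinc and copper transporters and MTF1 itself, 0 were called, against 11.4% of all tested genes. Their median log2 difference was 0.03. An unadjusted p under 0.05 (limma) was found for 7 of 19, near the 40.4% of all tested genes. The adjusted p was under 0.05 at any fold for 2, against 25.5% of all tested genes. Mtf1 measured 1.93 RPKM in infant and 2.27 RPKM in young adult EC (log2 difference 0.15 ± 0.11, adjusted p = 0.345), and the zinc exporter gene Slc30a1, a further MTF1 target, 4.2 ± 0.52 and 4.93 ± 0.153 RPKM (0.19 ± 0.11, adjusted p = 0.209).

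Sod3 showed the largest difference of the 10 genes. It encodes the secreted superoxide dismutase, which binds to the extracellular matrix, and lies on chromosome 5 (52363804 to 52369738). The level was 23.2, 8.9 and 17.9 RPKM in infant replicates 1, 2 and 3 and 1.1, 3.1 and 2.0 RPKM in young adult replicates 1, 2 and 3. The lowest infant library, replicate 2, was still above every young adult library. The mean fell from 16.7 ± 7.23 to 2.07 ± 1.0 RPKM (SD, n = 3), a ratio of 8.06, with a log2 difference of -2.48 ± 0.35 (SE; interval -3.30 to -1.67; limma, adjusted p = 0.00407). The call held without any one library, at -2.86 to -2.21. The infant order of Sod3, highest in replicate 1 and lowest in replicate 2, was also that of the fibroblast sums of 1271.7, 332.7 and 895.8 RPKM. The mural sums of 237.0, 68.9 and 236.4 RPKM were lowest in replicate 2 as well, and nearly level in replicates 1 and 3. Single fibroblast markers differed. Dcn (7.6, 19.9 and 8.0 RPKM) and Lum (4.1, 14.4 and 4.7 RPKM) were highest in infant replicate 2, and all other fibroblast markers were lowest there. The part of such cells in the Sod3 difference was not tested.

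Sod2, the manganese superoxide dismutase gene of the mitochondrial matrix (chromosome 17, 13007839 to 13018119), was nearly level. It measured 8.4, 9.6 and 9.9 RPKM in infant replicates 1, 2 and 3 and 8.8, 9.6 and 10.5 RPKM in young adult replicates 1, 2 and 3, so that the groups overlapped. The log2 difference was 0.05 ± 0.11 (SE; interval -0.20 to 0.29; limma, adjusted p = 0.777). The log2 ratio of Sod3 to Sod2 was 1.47, -0.11 and 0.85 in the infant and -3.00, -1.63 and -2.39 in the young adult libraries, a difference of -3.08 between the means of 0.74 ± 0.79 and -2.34 ± 0.69 (SD, n = 3; exact two-sided permutation test, p = 0.1, the smallest p that 3 against 3 allow).

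The cytosolic copper-zinc enzyme gene Sod1 carried most of the superoxide dismutase transcript at both ages. Sod1 measured 152.2 ± 12.1 RPKM in infant and 196.5 ± 6.74 RPKM in young adult EC (SD, n = 3; log2 difference 0.37 ± 0.12, limma, adjusted p = 0.0526). Of Sod1 and Ccs, the gene of its copper chaperone, 0 were called by limma (11.4% of all tested genes) and 1 had an unadjusted p under 0.05 (40.4% of all tested genes). Of the summed RPKM of Sod1, Sod2 and Sod3, Sod1 made up 85.4% ± 4.13 and 94.4% ± 0.561, and Sod2 5.21% ± 0.235 and 4.62% ± 0.238. Sod3 made up 13.7%, 4.98% and 9.62% in infant replicates 1, 2 and 3 and 0.552%, 1.47% and 0.930% in young adult replicates 1, 2 and 3.

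**Figure D3:**
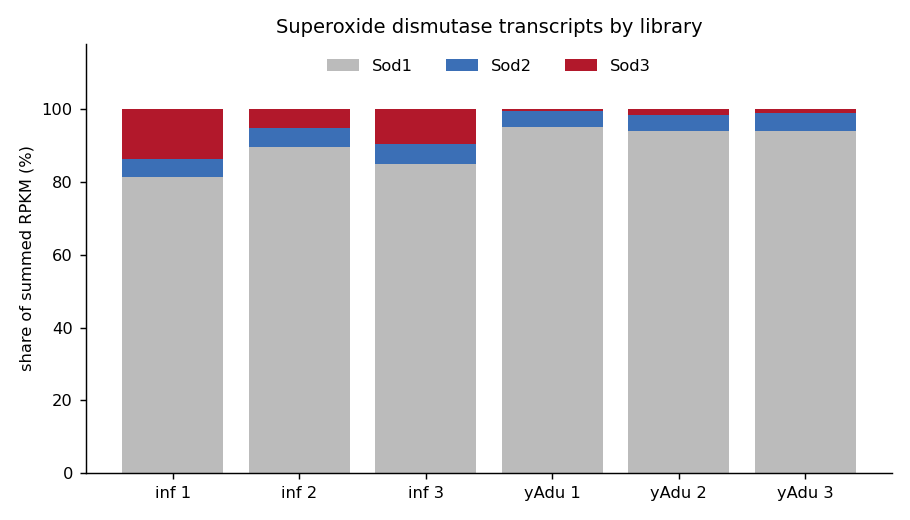
Share (%) of Sod1, Sod2 and Sod3 in their summed RPKM in each of the 6 libraries (inf, infant, and yAdu, young adult, with the replicate number), as stacked bars from 0 to 100%. The Sod3 segment is between 4.98% and 13.7% in the infant and between 0.552% and 1.47% in the young adult libraries.

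Cat encodes catalase, the peroxisomal enzyme that splits hydrogen peroxide, and lies on chromosome 2 (103453904 to 103485153). It measured 55.9, 58.0 and 61.2 RPKM in infant replicates 1, 2 and 3 and 40.5, 46.0 and 48.8 RPKM in young adult replicates 1, 2 and 3. The groups did not overlap and their spread was small, with means of 58.4 ± 2.67 and 45.1 ± 4.22 RPKM (SD, n = 3) and a ratio of infant to young adult of 1.29. The adjusted p of 0.0395 (limma) was under the threshold, but the log2 difference of -0.37 ± 0.11 (SE; interval -0.61 to -0.12) was under the required fold, and Cat was not called.

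Gpx3 encodes a secreted glutathione peroxidase that is known mainly from plasma (chromosome 11, 54902854 to 54910387). It measured 51.0, 108.6 and 47.2 RPKM in infant replicates 1, 2 and 3 and 54.6, 64.3 and 73.4 RPKM in young adult replicates 1, 2 and 3. Infant replicate 2 alone was above all young adult libraries and the other infant libraries were below them, so that the groups overlapped. The means were 68.9 ± 34.4 and 64.1 ± 9.40 RPKM (SD, n = 3), and the log2 difference was -0.01 ± 0.30 (SE; limma, adjusted p = 0.988), with an interval from -0.70 to 0.69 that still spans changes of some size in either direction. The sign changed without single libraries, with values between -0.22 and 0.37.

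Among the other genes that remove hydrogen peroxide 1 of 11 was called, Gpx8, or 9.09% against 11.4% of all tested genes. Values below 0 were found for 8 of 11, against 7295 of 12458 tested genes, at a median of -0.39. Without young adult replicate 3, 2 were called. Gpx8, a peroxidase of the endoplasmic reticulum, fell from 27.8, 21.7 and 34.1 RPKM in infant replicates 1, 2 and 3 to 5.8, 8.9 and 5.1 RPKM in young adult replicates 1, 2 and 3 (log2 difference -1.93 ± 0.22, adjusted p = 0.00184). Infant replicate 2 was the lowest of its group for Gpx8, as for the fibroblast and mural sums, whose part was not tested. The cytosolic Gpx1 measured 79.2 ± 17.4 and 59.6 ± 8.85 RPKM (-0.39 ± 0.18, adjusted p = 0.149), and Gpx4, which reduces lipid peroxides in membranes, 42.0 ± 6.58 and 53.3 ± 6.85 RPKM (0.34 ± 0.14, adjusted p = 0.121). Of the summed RPKM of Gpx1, Gpx3, Gpx4, Gpx7 and Gpx8, Gpx3 made up 23.7%, 41.8% and 19.6% in infant replicates 1, 2 and 3 and 32.4% ± 0.561 in the young adult (SD, n = 3), Gpx4 17.6% ± 1.38 and 26.9% ± 0.438, and Gpx8 11.8% ± 3.04 and 3.38% ± 1.07. The peroxiredoxin gene Prdx1 measured 158.8 ± 18.5 and 202.3 ± 10.9 RPKM (0.35 ± 0.13, adjusted p = 0.082). Prdx6, a peroxiredoxin abundant in lung epithelium, measured 61.1 ± 6.15 and 41.9 ± 8.55 RPKM (-0.55 ± 0.17, adjusted p = 0.0452) and was under the required fold.

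Gclc and Gclm encode the catalytic and the modifier subunit of glutamate-cysteine ligase, the rate-limiting enzyme of glutathione synthesis. Gclc (chromosome 9, 77754535 to 77794489) measured 3.5, 4.4 and 3.6 RPKM in infant replicates 1, 2 and 3 and 5.1, 4.9 and 6.1 RPKM in young adult replicates 1, 2 and 3. The groups did not overlap, the means were 3.83 ± 0.493 and 5.37 ± 0.643 RPKM (SD, n = 3), and the log2 difference of 0.40 ± 0.12 (SE; interval 0.12 to 0.68; limma, adjusted p = 0.0475) was under the required fold. Gclm (chromosome 3, 122245487 to 122267215) measured 3.0, 2.2 and 2.8 RPKM in infant replicates 1, 2 and 3 and 2.7, 2.8 and 2.6 RPKM in young adult replicates 1, 2 and 3, with overlapping groups and a log2 difference of 0.02 ± 0.12 (SE; interval -0.26 to 0.30; adjusted p = 0.921). The log2 ratio of Gclm to Gclc was -0.22, -1.0 and -0.36 in the infant and -0.92, -0.81 and -1.23 in the young adult libraries, which overlapped (means -0.53 ± 0.41 and -0.99 ± 0.22, SD, n = 3; exact two-sided permutation test, p = 0.3).

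The wider glutathione list, with synthesis, recycling and the conjugating transferases, held 6 genes called higher and 5 called lower of 23 tested, at a median log2 difference of 0.15. Without young adult replicate 2 these counts were 5 and 1. In the full comparison 47.8% of the list was called, against 11.4% of all tested genes (3.33% higher and 8.1% lower). Apart from Slc3a2 and Ggt7 the called genes were transferases. Gss, for synthesis, and Gsr, for recycling, were not called (limma, adjusted p = 0.237 and 0.595) and were named after their values were seen. Slc3a2, the heavy chain of the cystine and amino acid transporters, rose from 29.3, 38.8 and 26.0 RPKM in infant replicates 1, 2 and 3 to 96.3, 111.1 and 105.5 RPKM in young adult replicates 1, 2 and 3 (log2 difference 1.72 ± 0.15, adjusted p = 0.000998). The glutathione transferase genes Gstp1 (log2 difference 1.53 ± 0.14) and Gstp2 (1.52 ± 0.14, limma, both adjusted p = 0.000998) rose together. They are near copies that can share reads, so that their separate values are uncertain and their calls may not be independent. Gstt1, a transferase of another class, fell from 29.0, 8.7 and 28.7 RPKM to 4.7, 6.5 and 6.6 RPKM (-1.58 ± 0.41, adjusted p = 0.0286), and again infant replicate 2 was the lowest of its group, as it was for the fibroblast and mural sums.

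**Figure D4:**
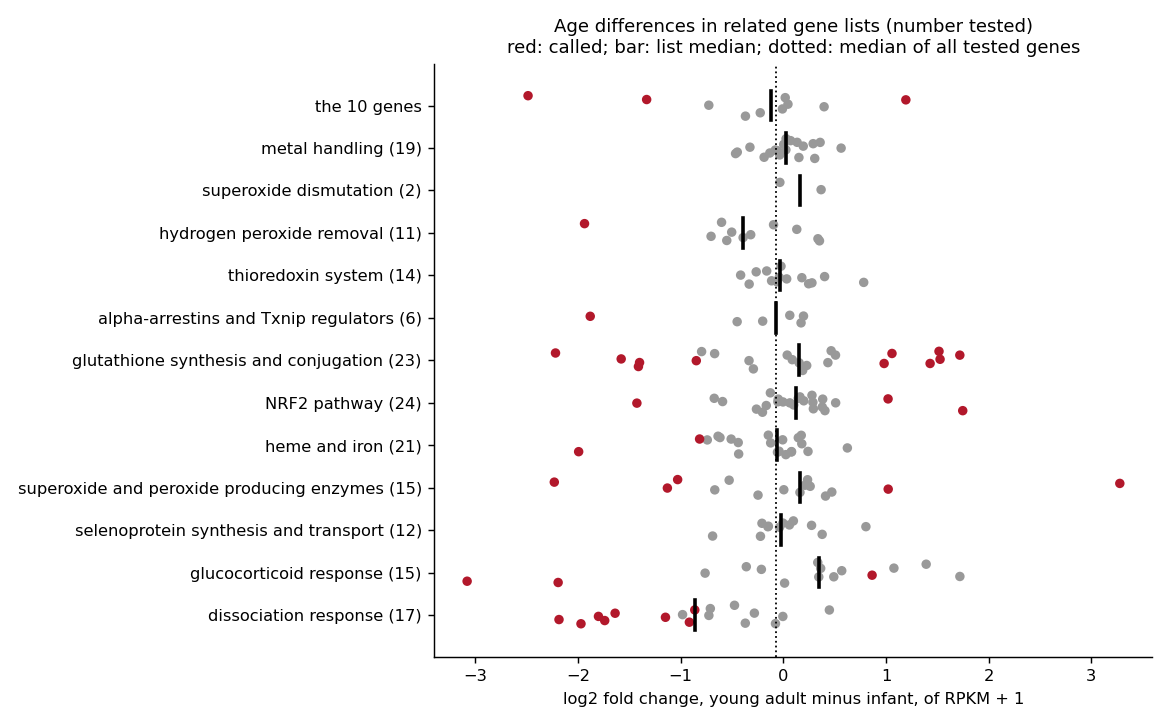
Log2 difference (young adult minus infant) of every tested gene of the related lists, with 1 point per gene, called genes in red, the median of each list as a bar and that of all tested genes dotted. Called genes lie on both sides of 0 in the glutathione list, which has 6 higher and 5 lower, whereas the metal handling and thioredoxin lists have 0 called. Of all tested genes 11.4% were called.

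Hmox1 encodes the inducible heme oxygenase, which breaks down heme to biliverdin, iron and carbon monoxide (chromosome 8, 75093618 to 75100593). It measured 11.7, 9.1 and 10.8 RPKM in infant replicates 1, 2 and 3 and 7.3, 9.9 and 9.5 RPKM in young adult replicates 1, 2 and 3, and the groups overlapped. The means were 10.5 ± 1.32 and 8.9 ± 1.4 RPKM (SD, n = 3), with a log2 difference of -0.22 ± 0.14 (SE; interval -0.55 to 0.10; limma, adjusted p = 0.264). The constitutive Hmox2 measured 27.3 ± 1.18 and 29.0 ± 1.5 RPKM (0.08 ± 0.09, adjusted p = 0.541). The ferritin chains were abundant and overlapped between ages, with Fth1 at 711.7 ± 90.7 and 658.3 ± 125.7 RPKM (adjusted p = 0.686) and Ftl1 at 511.8 ± 85.1 and 463.4 ± 85.6 RPKM (adjusted p = 0.613). Of 21 heme and iron genes tested 0 were called higher and 2 lower, or 9.52% against 11.4% of all tested genes. Without infant replicate 3 or young adult replicate 1 or 2, 1 call was left. The 2 genes were the ferroxidase gene Cp, which fell from 9.2, 6.7 and 10.0 RPKM to 0.6, 2.3 and 1.6 RPKM (-1.99 ± 0.26, adjusted p = 0.00321), and the transferrin receptor gene Tfrc (-0.81 ± 0.15, adjusted p = 0.0110), which is expressed strongly by erythroid precursors. Tfrc lay below the level set for naming list genes and was named after its value was seen. All 7 erythroid markers were lower in the young adult as well, and their part in the Tfrc difference was not tested. Cp was lowest in infant replicate 2 of its group, as were the fibroblast and mural sums, whose part in the Cp difference was not tested.

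NRF2, encoded by Nfe2l2, is the transcription factor that drives Hmox1, Gclc, Gclm and many transferases, and KEAP1 holds it in check. Nfe2l2 measured 51.5 ± 5.06 RPKM in infant and 68.5 ± 4.97 RPKM in young adult EC (log2 difference 0.41 ± 0.11, adjusted p = 0.0364), under the required fold, and Keap1 10.6 ± 2.20 and 14.0 ± 2.3 RPKM (0.38 ± 0.16, adjusted p = 0.124). Of 24 genes of the NRF2 list tested 2 were called higher and 1 lower. The epoxide hydrolase gene Ephx1 rose from 31.2, 66.5 and 32.4 RPKM to 132.6, 158.5 and 127.9 RPKM (a ratio of the means of 3.22, limma, adjusted p = 0.00565). Its highest infant library was replicate 2, as for the endothelial marker sum, and the part of cell makeup was not tested. The quinone reductase gene Nqo1 rose from 1.13 ± 0.513 to 3.27 ± 0.503 RPKM (SD, n = 3; 1.02 ± 0.19, adjusted p = 0.00994). The retinaldehyde dehydrogenase gene Aldh1a1 fell from 8.0, 12.1 and 10.9 RPKM to 1.9, 4.1 and 3.9 RPKM (-1.42 ± 0.24, adjusted p = 0.00700). The share called, 12.5%, was close to the 11.4% of all tested genes. The consensus of the antioxidant response element, TGACNNNGC, occurred once on either strand in the windows of Mt2 and of Gclm, in a background of 12.4% of windows. Hmox1 and Gclc had no window and were not searched.

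Txnip was the most abundant of the 10 genes and was called higher in young adult EC. TXNIP binds and inhibits thioredoxin and lowers glucose uptake, and its gene is induced by glucose (chromosome 3, 96557957 to 96561857). The level was 161.4, 358.6 and 158.7 RPKM in infant replicates 1, 2 and 3 and 364.6, 648.1 and 469.1 RPKM in young adult replicates 1, 2 and 3. The groups did not overlap, but only just, since infant replicate 2 at 358.6 RPKM lay close to young adult replicate 1 at 364.6 RPKM. The mean rose from 226.2 ± 114.6 to 493.9 ± 143.4 RPKM (SD, n = 3), a ratio of 2.18, with a log2 difference of 1.19 ± 0.35 (SE; interval 0.39 to 2.0; limma, adjusted p = 0.0416). The second transcript row of Txnip had nearly the same values, 159.8, 354.9 and 157.3 RPKM in the infant and 361.5, 641.0 and 464.9 RPKM in the young adult replicates 1, 2 and 3. The call was kept without infant replicate 2, at 1.58, and lost without any one of the other libraries, with an adjusted p of 0.132 without infant replicate 1, 0.119 without infant replicate 3, and 0.0688, 0.146 and 0.0993 without young adult replicates 1, 2 and 3. Infant replicate 2, with the highest infant level, also had the highest endothelial marker sum of its group, 4513.0 RPKM, and the part of cell makeup in the Txnip difference was not tested.

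The start region of Txnip is printed because it holds the carbohydrate response element through which glucose acts on the gene. The RefSeq window chr3:96557707-96558006 (GRCm38.p6, plus strand, 5′ to 3′) shows in capitals a pair of CACGAG hexamers with 5 bases between them, a motif chosen after the sequence was seen.
Txnip: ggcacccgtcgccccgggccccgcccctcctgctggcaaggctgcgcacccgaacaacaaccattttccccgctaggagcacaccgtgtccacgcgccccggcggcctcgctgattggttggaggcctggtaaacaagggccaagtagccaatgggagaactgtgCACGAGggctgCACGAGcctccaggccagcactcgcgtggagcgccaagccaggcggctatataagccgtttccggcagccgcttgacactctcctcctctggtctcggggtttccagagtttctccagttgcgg
The pair begins 85 bases before the start. Its count of 1 in 32851 windows (0.00304%) is this window itself. Because the motif was copied from it, the count does not measure how particular the pair is to Txnip. The E-box CACGTG was in 0 of the 7 windows found for these genes and in 7.15% of all windows.

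Of 14 thioredoxin system genes tested 0 were called, against 11.4% of all tested genes, at a median log2 difference of -0.03. An unadjusted p under 0.05 (limma) was found for 4 of 14, below the 40.4% of all tested genes. The adjusted p was under 0.05 at any fold for 2, against 25.5% of all tested genes. Without infant replicate 2 or 3 or young adult replicate 1, 1 was called higher. Thioredoxin itself, Txn1, measured 91.9 ± 13.1 and 108.5 ± 3.58 RPKM (0.25 ± 0.13, adjusted p = 0.193), and the reductase Txnrd1 3.87 ± 1.5 and 4.33 ± 0.208 RPKM (0.18 ± 0.22, adjusted p = 0.568). Of 6 alpha-arrestin relatives and Txnip regulators tested 1 was called, or 16.7% against 11.4% of all tested genes. Arrdc3, an alpha-arrestin related to Txnip, fell from 55.1, 34.0 and 61.8 RPKM in infant replicates 1, 2 and 3 to 12.6, 10.6 and 14.7 RPKM in young adult replicates 1, 2 and 3 (-1.88 ± 0.22, adjusted p = 0.00215), in the direction opposite to Txnip. Its lowest infant library was replicate 2, as for the fibroblast and mural sums, whose part was not tested.

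**Figure D5:**
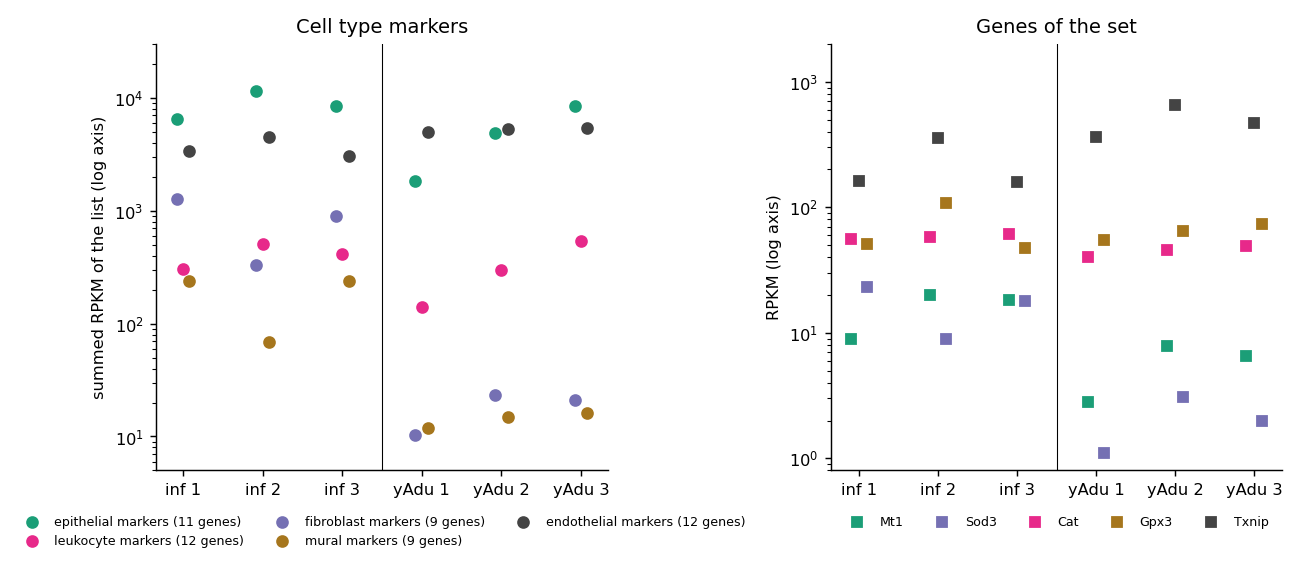
Summed RPKM of 5 marker lists (left) and RPKM of Mt1, Sod3, Cat, Gpx3 and Txnip (right) in each of the 6 libraries (inf, infant, and yAdu, young adult), on log axes, with points set slightly apart sideways. The fibroblast sums are between 332.7 and 1271.7 in the infant and between 10.3 and 23.3 in the young adult libraries, and infant replicate 2 has the lowest fibroblast sum and the lowest Sod3 of its group.

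The enzymes that produce superoxide and hydrogen peroxide changed in both directions, with 2 called higher and 3 lower of 15 tested, at a median of 0.16. The share called was 33.3%, against 11.4% of all tested genes. Without infant replicate 1 or 3 or young adult replicate 2, 3 were called in all, and without young adult replicate 1, 2 were. The xanthine oxidoreductase gene Xdh was called higher (log2 difference 3.28 ± 0.50, limma, adjusted p = 0.00529). It measured 12.2, 52.4 and 11.8 RPKM in infant replicates 1, 2 and 3 and 206.8, 228.3 and 171.3 RPKM in young adult replicates 1, 2 and 3. Infant replicate 2 was the highest of its group, as for the endothelial marker sum, and the part of cell makeup was not tested. The other called genes were the NADPH oxidase genes Nox1 (1.02), Nox4 (-2.23), Cybb (-1.03) and Ncf4 (-1.13). They were named after their values were seen, at mean levels of at most 5.1 RPKM in either group. Nox4 measured 7.0, 2.5 and 5.8 RPKM in infant replicates 1, 2 and 3, again lowest in replicate 2, and 0.1, 0.4 and 0.2 RPKM in the young adult libraries. Cybb and Ncf4 encode subunits of the oxidase of phagocytes. Cybb measured 2.4, 2.6 and 3.1 RPKM in infant replicates 1, 2 and 3 and 0.2, 0.7 and 1.9 RPKM in young adult replicates 1, 2 and 3. All 12 leukocyte markers measured had log2 differences below 0 and 3 were called lower, with sums of 305.7, 502.8 and 411.3 RPKM in the infant and 141.0, 299.3 and 539.7 RPKM in the young adult libraries, and within the young adult both Cybb and this sum were lowest in replicate 1 and highest in replicate 3. Most of this sum was Lyz2, at 134.3, 285.6 and 515.5 RPKM in young adult replicates 1, 2 and 3. The part of leukocyte RNA in the Cybb and Ncf4 differences was not tested. Over the 10 lists of metal, oxidant and heme genes 10 were called higher and 13 lower of 147 tested, or 15.6% against 11.4% of all tested genes.

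The genes whose pattern over the 6 libraries was most like that of a member were ranked by Pearson's correlation of log2(RPKM + 1) among the 6984 genes that averaged 5 RPKM or more. With 6 points that share libraries and 2 ages, high values are common, and they are given as a description. For Txnip the nearest gene was Gm15441 (r = 0.998), at 25.3, 51.7 and 23.2 RPKM in the infant and 53.2, 94.0 and 64.7 RPKM in the young adult replicates 1, 2 and 3. Gm15441 is an antisense RNA that overlaps Txnip on the opposite strand (chromosome 3, 96555765 to 96566801), and 606 bases of their exons coincide. Whether the counting used strand is not given in the sources used here, so reads of the shared stretch cannot be told apart and the Gm15441 values are uncertain. The next was Uros (r = 0.993), an enzyme of heme synthesis. For Sod3 the nearest were Ndn and Mmp14 (both r = 0.995), of which Mmp14, a membrane-bound matrix protease, measured 22.9, 11.7 and 19.9 RPKM in the infant and 2.8, 4.1 and 3.6 RPKM in the young adult libraries. For Mt1 they were Sec14l3 (r = 0.989), at 25.4, 52.1 and 42.0 RPKM in the infant and 5.4, 17.1 and 16.1 RPKM in the young adult libraries, and Pop4 (r = 0.987). In Sec14l3 as in Mt1, replicate 1 was the lowest library of each group, which also held for the epithelial marker sums of 6525.9, 11395.6 and 8497.1 RPKM in the infant and 1823.5, 4832.9 and 8398.6 RPKM in the young adult libraries. The leukocyte sums were likewise lowest in replicate 1 of each group, at 305.7 and 141.0 RPKM. Within the young adult, Mt1 was highest in replicate 2, whereas the epithelial and leukocyte sums were highest in replicate 3. The part of epithelial or leukocyte RNA in the Mt1 difference was not tested. For Cat the nearest were Acaa2 (r = 0.9995), a thiolase of fatty acid oxidation, and Krt18 (r = 0.991), a keratin of epithelial cells that measured 9.4, 13.1 and 14.9 RPKM in the infant and 1.2, 3.9 and 5.6 RPKM in the young adult libraries. For the remaining genes the nearest were Fam216a for Mt2 (r = 0.974), Atxn10 for Hmox1 (r = 0.995), Gpatch11 for Gclc (r = 0.994), Mbnl1 for Gclm (r = 0.9745), Ppp1ca for Sod2 (r = 0.981) and 2900026A02Rik for Gpx3 (r = 0.990).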

How the data were processed

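The authors aligned reads to mm10 with STAR, used the RefSeq gene annotation and tested genes with DESeq2. The versions are not given in the sources used here. The deposited table holds the authors' RPKM values, rounded to steps of 0.1, with 1 row per RefSeq transcript and 0 columns beyond the 6 libraries. The methods give an average transcriptome coverage only. Read counts were not analysed here, so the depth of single libraries is unknown and no counting error is attached. Because RPKM divides by the mapped reads of a library, abundant globin lowers the other genes.

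Groups and replicate numbers came from the library titles. The transcript row with the highest mean stood for a gene, and 24 rows with symbols turned into dates were restored by RefSeq accession. Genes that reached 1 RPKM in any library (12458) were tested on log2(RPKM + 1), which understates changes of low genes, with limma 3.58.1 in R 4.3.3 (trended eBayes, age as the term, Benjamini-Hochberg adjustment). A call needed an adjusted p under 0.05 and a fold over 1.75. The script was tested on simulated data. Members and gene lists were chosen with earlier results of these data known. The text names all members, textbook genes of their systems whatever their values, and of each list at most 4 called genes, those averaging 5 RPKM or more with the largest change. The alternatives were other pseudocounts, filters, scalings, weights, tests, a replicate block and leaving out each library. Gene positions and start windows are from RefSeq (GRCm38.p6).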

Additional observations from a re-analysis of the deposited data

How the results depend on the processing

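The depth of single libraries is unknown, and values under 1 RPKM carry the rounding step of 0.1. The number of genes called (1424) was 578 with a pseudocount of 5, 176 when limma's treat tested against the fold threshold, 3176 without the fold threshold and 842 to 1874 without single libraries. The number of members called (3) was 1 with robust eBayes, 0 with treat, 5 without the fold threshold, where Gclc and Cat were added, and 1 to 3 without single libraries. Without infant replicate 1 the 3 were Mt1, Mt2 and Sod3, all lower. With robust eBayes Mt1 (adjusted p = 0.0653) and Txnip (adjusted p = 0.0502) lost their calls, whereas Sod3 lost its call under treat only (adjusted p = 0.053). Signs reversed for values near 0. Rescaling without globin gave Gclm -0.0599 and Sod2 -0.0508, array weights gave Gclm -0.0249 and Gpx3 0.219, and median ratio scaling gave Gpx3 0.0588. Without single libraries Gclm ranged from -0.0758 to 0.0851, Sod2 from -0.0187 to 0.103 and Gpx3 from -0.224 to 0.369. The difference in the log2 ratio of Mt1 to Mt2 was -0.61 with 1 added to both and -0.35 to 0.38 without single libraries. The cause of these shifts was not tested. Libraries with the same replicate number did not deviate together (correlations 0.0282, -0.110 and -0.0208), and with the replicate block 1371 genes and 3 members were called. The number of calls ranged over all alternatives from 4 to 12 in the glutathione list, 0 to 5 in the NRF2 list, 0 to 6 in the heme and iron list, 2 to 5 among the oxidant-producing enzymes, 1 to 4 in the peroxide list, 2 to 10 in the dissociation list and 2 to 6 in the glucocorticoid list, and from 0 to 2 in the metal, thioredoxin and selenoprotein lists.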

Other observations

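A list of immediate early and heat shock genes that are known to respond to tissue dissociation had log2 differences below 0 in 16 of 17 genes (7295 of 12458 tested genes overall), at a median of -0.86, and 8 passed the test, all lower (8.1% of all tested genes), and 5 were called without infant replicate 1 or without young adult replicate 2. Fos fell from 318.4, 193.0 and 330.0 RPKM in infant replicates 1, 2 and 3 to 81.6, 59.3 and 67.6 RPKM in young adult replicates 1, 2 and 3 (-1.97 ± 0.23, limma, adjusted p = 0.00200), and Nr4a1 (-2.18, adjusted p = 0.0104), Egr1 (-1.80, adjusted p = 0.00886) and Fosb (-1.74, adjusted p = 0.00146) fell with it. Infant replicate 2 was the lowest infant library for all 4, with 31.7 RPKM of Fosb, 78.6 RPKM of Egr1 and 74.1 RPKM of Nr4a1, as it was for the fibroblast sums of 1271.7, 332.7 and 895.8 RPKM and the mural sums of 237.0, 68.9 and 236.4 RPKM in infant replicates 1, 2 and 3, whose part in these differences was not tested. Mt1, Hmox1 and Txnip are also known to respond to stress, and the part of cell handling in their values was not tested.

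Of 15 glucocorticoid-responsive genes tested 1 was called higher and 2 lower, at a median of 0.35. The share called was 20%, against 11.4% of all tested genes. Without infant replicate 2, 4 were called higher and 2 lower. In infant replicates 1, 2 and 3 Tsc22d3 measured 111.1, 248.3 and 132.2 RPKM, Cdkn1a 24.7, 85.5 and 23.6 RPKM and Zbtb16 0.9, 8.2 and 0.7 RPKM. They were not called and were named after their values were seen. Infant replicate 2 was also the highest infant library for Txnip and Gpx3. It was the lowest for Nr3c1, Pdk4 and Angptl4, and Hsd11b1 lay between. The part of a glucocorticoid response in the member differences was not tested. Angptl4, an inhibitor of lipoprotein lipase, fell from 16.5, 7.4 and 15.8 RPKM to 0.2, 0.8 and 0.9 RPKM (-3.08 ± 0.30, adjusted p = 0.00128). The fibroblast and mural sums were also lowest in infant replicate 2 of their group, and their part in the Angptl4 difference was not tested. Hsd11b1, the enzyme that regenerates active glucocorticoid inside cells, fell from 15.9, 25.9 and 27.3 RPKM to 3.2, 5.3 and 4.1 RPKM (-2.19 ± 0.22, adjusted p = 0.00140), and the transcription factor gene Cebpd rose from 2.8, 3.7 and 3.5 RPKM to 7.1, 7.1 and 6.4 RPKM (0.86 ± 0.11, adjusted p = 0.00316). The glucocorticoid receptor gene Nr3c1 measured 24.1 ± 1.46 and 20.6 ± 1.43 RPKM (SD, n = 3; -0.21 ± 0.10, adjusted p = 0.139). The thioredoxin reductases and some of the glutathione peroxidases depend on selenoprotein synthesis and transport. Of 12 genes of this list tested 0 were called with limma, against 11.4% of all tested genes. An unadjusted p under 0.05 was found for 4, against 40.4% of all tested genes, and an adjusted p under 0.05 at any fold for 1, against 25.5%. Without infant replicate 2, 1 was called higher and 1 lower.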
